A study of Mus musculus with 15 samples.

Results

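Expression of 10 target genes of the transcription factor p53 was followed through 15 bulk mouse melanoma grafts. The genes were the rows of the deposited table of transcript abundance whose symbol was Cdkn1a, Mdm2, Ccng1, Bbc3, Fas, Bax, Phlda3, Sesn2, Trp53inp1 or Gdf15. All 10 were found among 23420 genes, and all 10 passed the filter on low values. The protein p53 is a tumor suppressor that is stabilised by DNA damage and other stress and then switches on genes for cell cycle arrest, DNA repair, apoptosis and its own degradation. Ultraviolet light is a classic activator of p53 in skin, and in melanoma p53 is often held in check by Mdm2 or by loss of the Cdkn2a locus, with the p53 gene itself left intact. Many targets are also driven by other factors: Fas by interferons and lymphocyte activation, Sesn2, Gdf15 and Trp53inp1 by stress pathways.

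The grafts grew from cells inoculated into both flanks (1000000 per flank) of female mice of the inbred strain C57BL/6, aged 8 weeks. The parental line was D4M.3A.3, and the UV2 line was D3UV2, which carries putative neoantigens induced by UVB light. Parental grafts received isotype control antibody, anti-PD-1 (a blocking antibody to PD-1, an inhibitory receptor of T cells) or triple therapy, and UV2 grafts received isotype antibody or anti-PD-1. Each of the 5 groups held 3 libraries. Triple therapy combined imiquimod, a topical agonist of the innate receptor Tlr7, and ablative fractional photothermolysis, in which a laser burns an array of narrow channels into the skin. The labels disagree on its antibody: one names anti-PD-1 and the other the isotype control. Antibodies were given on days 8, 10 and 12, imiquimod or a lotion on the same days and the laser on days 8 and 12; the tumors were removed at day 13. The labels do not say whether either line is a single clone, nor whether libraries of the same group are from different animals, and the p-values then cover only the spread among these libraries, which may be technical.

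Abundance was given as TPM, a relative transcript level scaled by transcript length and by the total of each library, so the number of reads behind a value is unknown. Fold changes are on the log2(TPM + 1) scale with their standard error (SE), which understates the change of low genes. Adjusted p-values are from limma with Benjamini-Hochberg adjustment over all 13592 genes tested, and a gene was called at an adjusted p under 0.05. Between 12239 and 13993 genes reached 1 TPM in a library. The labelled lineage was faint at the transcript level: of 7 melanocyte markers only Mitf (5.28 to 14.2 TPM) and Tyr (1.49 to 4.57 TPM) passed the filter, and Tyrp1 and Dct were each listed at 0 in 11 libraries. The 3 libraries of lowest median-of-ratios scaling factor were UV2 anti-PD-1 replicate 3 (0.763), UV2 isotype replicate 2 (0.785) and parental isotype replicate 3 (0.911), and counts of called genes are given below with and without them.

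Tumors of the UVB-derived line did not show a uniform rise or fall of p53 targets. The arrest gene Cdkn1a and the feedback gene Mdm2 lay lower in UV2 tumors, and the death genes Bbc3 and Fas lay higher. Averaged over isotype and anti-PD-1, 5 of the 10 members were called between the lines (33% of all genes were). Fas (1.15 ± 0.14), Bbc3 (1.07 ± 0.18) and Trp53inp1 (0.68 ± 0.22) rose, and Mdm2 (-0.92 ± 0.23) and Cdkn1a (-0.73 ± 0.12) fell. The other 5 members did not pass, among them the apoptosis gene Bax and Ccng1, and the p53 gene Trp53 did not pass either. In the wider list of targets below, the death receptor gene Tnfrsf10b fell, so direction did not follow function throughout. The called share of the members is to be read against 13.4% of genes higher and 19.6% lower in the same comparison.

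**Figure D1:**
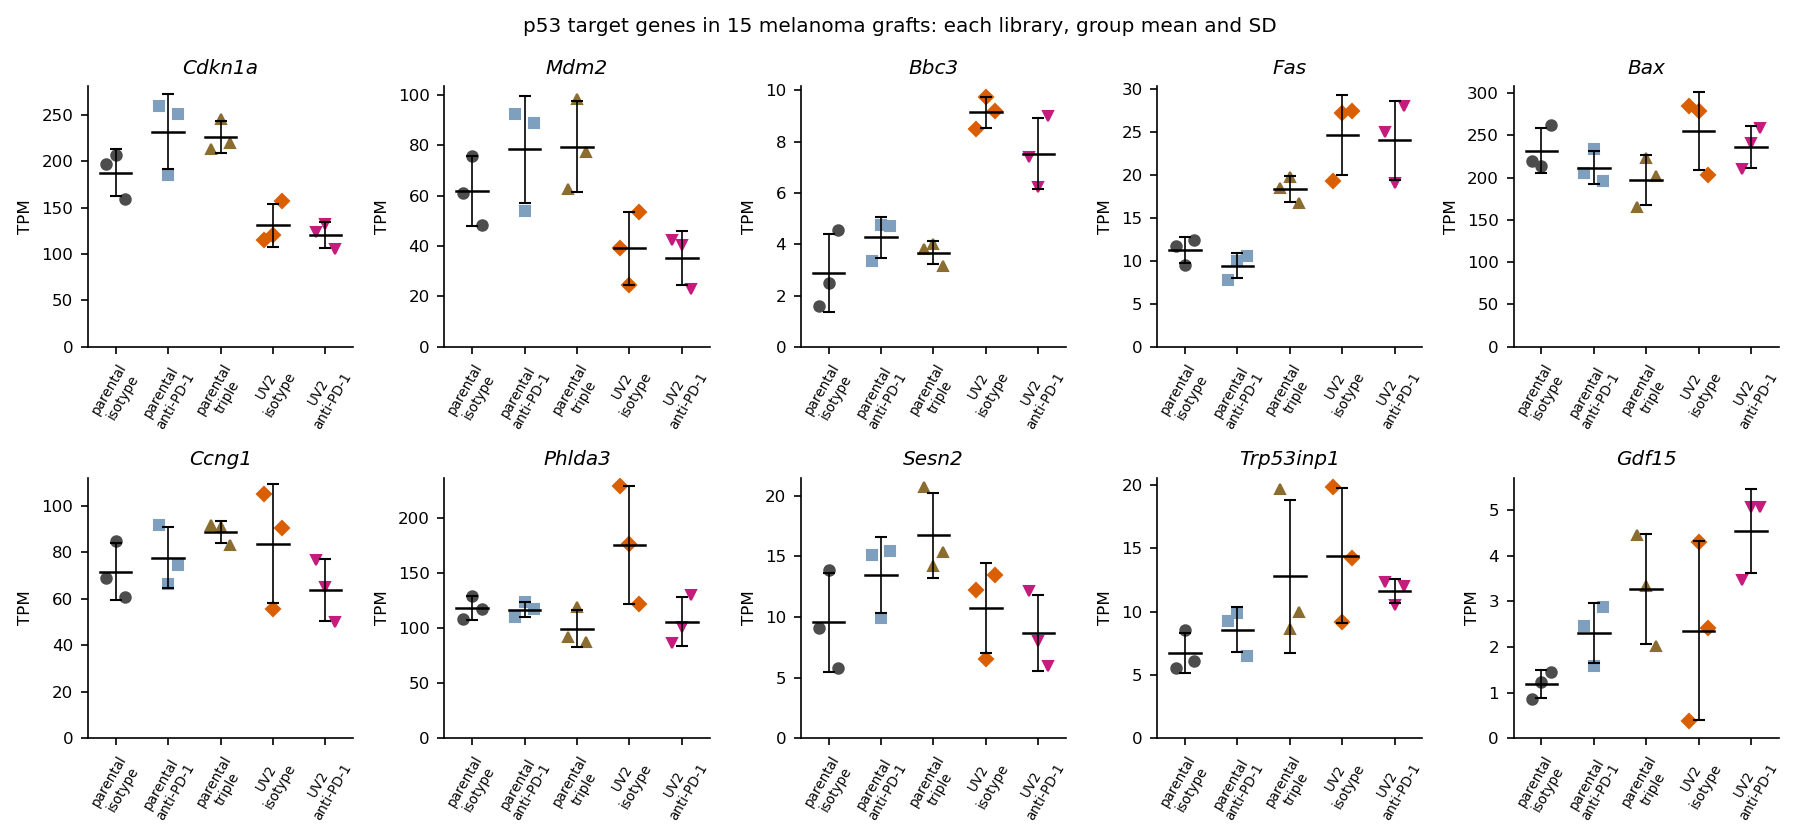
TPM of the 10 p53 target genes in each of 15 libraries (points), with the mean and SD of each group of 3 (bars), on linear axes that start at 0. The 6 UV2 libraries lie below all 9 parental libraries for Cdkn1a and above all 9 for Bbc3, whereas for the other 8 genes the lines overlap.

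The genes of arrest and feedback came first. Cdkn1a encodes p21, an inhibitor of cyclin-dependent kinases and the main effector of p53-induced arrest (chromosome 17, 29090976 to 29100727, plus strand, GRCm38). An annotated antisense gene, AC167363.2, overlaps its exons, and the sources used here do not say whether the counting used strand. Mdm2 encodes the ubiquitin ligase that marks p53 for degradation and is itself a p53 target (chromosome 10, 117688875 to 117710758, minus strand). Ccng1 encodes cyclin G1, a partner of a phosphatase that acts on Mdm2 (chromosome 11, 40748552 to 40755311, minus strand).

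Cdkn1a measured 197, 207 and 159 TPM in the 3 parental isotype libraries and 115, 120.4 and 157 TPM in UV2 isotype. It measured 259, 185 and 251 TPM in parental anti-PD-1, 213, 245 and 219.5 TPM in parental triple therapy, and 124, 132 and 105 TPM in UV2 anti-PD-1. Every UV2 library lay below every parental library, triple therapy included, a separation shared by 1.71% of the genes tested in that direction. The closest pair were UV2 isotype replicate 3 at 157 TPM and parental isotype replicate 3 at 159 TPM. Under isotype antibody the difference was -0.52 ± 0.17 and was not called (adjusted p = 0.124), and under anti-PD-1 Cdkn1a fell by 0.93 (SE 0.17, adjusted p = 0.0106). The mean over both treatments gave an adjusted p of 0.00195. Both treatment comparisons used different libraries, and the mean uses both, so it adds no further samples.

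Mdm2 measured 61.2, 75.8 and 48.4 TPM in parental isotype and 39.2, 24.4 and 53.5 TPM in UV2 isotype libraries. With anti-PD-1 it measured 92.4, 54.0 and 88.9 TPM in parental and 42.5, 40.2 and 22.8 TPM in UV2 tumors, and with triple therapy 62.6, 98.5 and 77.2 TPM. The lines overlapped through 1 pair of isotype libraries, UV2 replicate 3 above parental replicate 3. The lowest 2 values came from the 2 libraries of lowest scaling factor, UV2 anti-PD-1 replicate 3 and UV2 isotype replicate 2. Mdm2 did not pass under isotype antibody (-0.69 ± 0.32, adjusted p = 0.281; -0.40 without UV2 isotype replicate 2) and fell by 1.14 under anti-PD-1 (SE 0.32, adjusted p = 0.0279). Averaged over both, its adjusted p was 0.0109.

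Ccng1 showed no call in any comparison. It measured 69, 84.8 and 60.7 TPM in parental isotype and 105, 55.4 and 90.2 TPM in UV2 isotype libraries, so the UV2 values spanned the parental ones. Averaged over treatments the line difference was -0.05 with a 95% interval from -0.40 to 0.30.

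The apoptosis genes are Bbc3, Fas and Bax. Bbc3 encodes PUMA, a BH3-only protein that frees Bax to open the mitochondrial outer membrane (chromosome 7, 16308393 to 16318205, plus strand). Fas encodes the death receptor that binds Fas ligand of cytotoxic lymphocytes (chromosome 19, 34290666 to 34327772, plus strand). Bax encodes the pore-forming effector itself (chromosome 7, 45461697 to 45466898, minus strand), and a same-strand gene, Gm45808, overlaps it.

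Bbc3 measured 1.61, 2.50 and 4.57 TPM in parental isotype and 8.51, 9.73 and 9.19 TPM in UV2 isotype libraries. Parental anti-PD-1 libraries held 3.35, 4.75 and 4.70 TPM, parental triple therapy 3.81, 4.02 and 3.17 TPM, and UV2 anti-PD-1 7.39, 6.22 and 9.01 TPM. All 6 UV2 libraries lay above all 9 parental ones, as 1.68% of genes did in that direction. Bbc3 rose under isotype antibody by 1.45 ± 0.26 (adjusted p = 0.0260) and measured 0.70 ± 0.26 under anti-PD-1 (adjusted p = 0.0576), with an adjusted p of 0.00217 for the mean. Whether the line difference depended on anti-PD-1 was tested by the difference of differences, -0.75 ± 0.36 (adjusted p = 0.800).

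Fas measured 11.7, 9.56 and 12.4 TPM in parental isotype and 19.3, 27.1 and 27.4 TPM in UV2 isotype libraries. In parental anti-PD-1 tumors it measured 7.78, 9.95 and 10.6 TPM and in UV2 anti-PD-1 tumors 24.9, 19 and 28 TPM. Parental triple therapy libraries reached 18.5, 19.7 and 16.7 TPM, and replicate 2 of these lay above UV2 isotype replicate 1 and UV2 anti-PD-1 replicate 2. Fas rose in UV2 tumors under isotype antibody (1.06 ± 0.19, adjusted p = 0.0308) and under anti-PD-1 (1.25 ± 0.19, adjusted p = 0.00927), with an adjusted p of 0.000705 for the mean.

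Bax, the most abundant of the 10 by group mean in 3 of 5 groups, ahead of Cdkn1a, was not called. Its group means were 232 ± 26.4 TPM (SD, n = 3) in parental isotype, 255 ± 45.9 TPM in UV2 isotype, 211 ± 19.4 TPM in parental anti-PD-1, 236 ± 24.6 TPM in UV2 anti-PD-1 and 197 ± 29.2 TPM in parental triple therapy. The averaged line difference was 0.14 with a 95% interval from -0.10 to 0.39.

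The upstream sequences of the 4 members called in at least 2 line comparisons are given here because p53 binds DNA directly, at a pair of 10-base half-sites. They are RefSeq promoters on GRCm38.p6 that end before the transcript, and the table held 9 of the 10 members (not Trp53inp1). Capitals mark exact matches to the p53 half-site consensus and 20-base sites of 2 adjacent half-sites with at most 3 mismatches, both strands.
Cdkn1a, chr17:29090729-29090975, plus strand: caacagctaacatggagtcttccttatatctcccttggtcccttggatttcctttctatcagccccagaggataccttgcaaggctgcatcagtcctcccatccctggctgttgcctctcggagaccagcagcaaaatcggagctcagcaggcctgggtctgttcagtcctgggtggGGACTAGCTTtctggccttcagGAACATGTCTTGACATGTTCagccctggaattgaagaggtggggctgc
Mdm2, chr10:117710759-117711008, minus strand: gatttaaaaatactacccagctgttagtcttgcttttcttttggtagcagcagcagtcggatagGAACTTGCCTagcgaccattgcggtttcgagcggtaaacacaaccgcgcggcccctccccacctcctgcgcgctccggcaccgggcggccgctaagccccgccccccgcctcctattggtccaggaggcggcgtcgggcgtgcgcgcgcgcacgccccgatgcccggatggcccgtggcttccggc
Bbc3, first of 3 start sites, chr7:16309333-16309582, plus strand: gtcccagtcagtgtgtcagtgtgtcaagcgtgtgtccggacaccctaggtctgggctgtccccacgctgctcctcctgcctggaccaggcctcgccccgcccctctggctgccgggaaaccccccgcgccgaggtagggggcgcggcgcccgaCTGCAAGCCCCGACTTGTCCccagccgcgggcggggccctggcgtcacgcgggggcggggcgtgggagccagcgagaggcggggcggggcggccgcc
Fas, chr19:34290409-34290658, plus strand: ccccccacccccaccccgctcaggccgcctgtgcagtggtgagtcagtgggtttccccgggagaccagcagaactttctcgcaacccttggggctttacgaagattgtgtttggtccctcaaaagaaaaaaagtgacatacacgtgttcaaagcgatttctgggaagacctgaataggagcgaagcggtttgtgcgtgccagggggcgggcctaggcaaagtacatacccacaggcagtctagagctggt
In Cdkn1a, which lay lower in UV2 tumors, the second run of capitals is a 20-base site with 1 mismatch. It begins 51 bases before the start site of the printed window and 2841 bases before the second annotated start site. Bbc3, which lay higher, carries a 20-base site with 3 mismatches before the first of its 3 start sites and none at the others. Mdm2 carries a single half-site, and the Fas window has no capitals. Over windows of 300 bases, which run 50 bases into the transcript, an exact half-site was found in 4 of the 9 members (Cdkn1a, Mdm2, Bax and Ccng1) and in 9.554% of 27025 symbols. A 20-base site with at most 3 mismatches, a search added after the sequences had been seen, was found in 4 of the 9 (Cdkn1a, Bbc3, Bax and Ccng1) and in 7.204% of symbols. Such sites stood both in members that lay higher and in members that lay lower, and a match describes the letters of a window only.

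**Figure D2:**
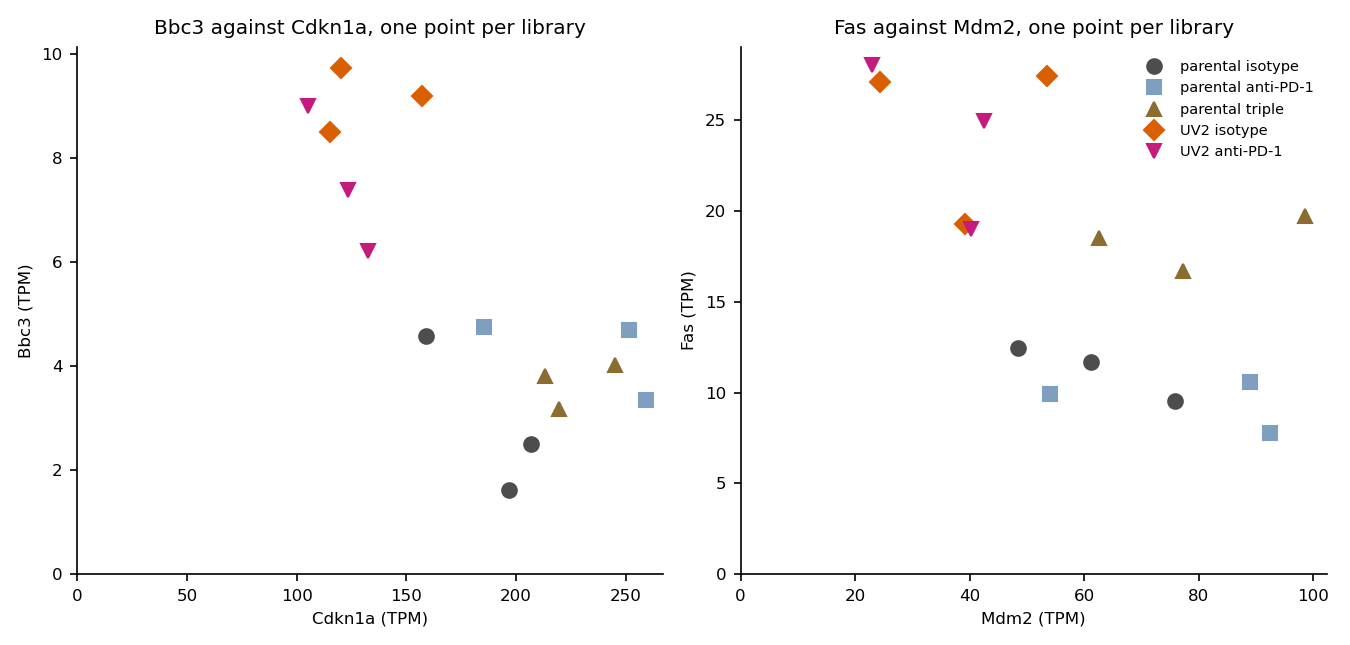
TPM of Bbc3 against Cdkn1a (left) and of Fas against Mdm2 (right), with 1 point per library on axes from 0. UV2 libraries sit at low Cdkn1a (at most 157 TPM) and high Bbc3 (at least 6.22 TPM), apart from the parental libraries, and on the Fas axis the triple therapy libraries sit above the other parental libraries and overlap the lowest UV2 libraries.

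The remaining members act in signalling and stress. Phlda3 encodes an inhibitor of Akt membrane binding (chromosome 1, 135766119 to 135769136, plus strand), Sesn2 a sestrin that restrains mTORC1 (chromosome 4, 132492032 to 132510501, minus strand), and Trp53inp1 a nuclear protein of stress and autophagy (chromosome 4, 11156431 to 11174379, plus strand). Gdf15 encodes a secreted stress cytokine (chromosome 8, 70629393 to 70632456, minus strand).

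Trp53inp1 measured 5.57, 8.54 and 6.13 TPM in parental isotype and 19.8, 9.16 and 14.2 TPM in UV2 isotype libraries. Under anti-PD-1 it measured 9.26, 9.90 and 6.53 TPM in parental and 12.4, 10.6 and 12.0 TPM in UV2 tumors. The lines did not overlap within either treatment, but parental triple therapy replicate 1 reached 19.7 TPM, near the highest UV2 value. Trp53inp1 rose in the mean comparison (adjusted p = 0.0318) and was not called under isotype antibody (0.95 ± 0.31, adjusted p = 0.129) or anti-PD-1 (0.42 ± 0.31, adjusted p = 0.303).

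Phlda3 was high in 2 UV2 isotype libraries, 229 and 176 TPM in replicates 1 and 2, against 122 TPM in replicate 3. Parental isotype libraries held 108, 129 and 118 TPM, parental anti-PD-1 109.8, 124 and 117 TPM, parental triple therapy 92.2, 119 and 87.6 TPM and UV2 anti-PD-1 86.5, 101 and 130.4 TPM. The line difference was 0.52 ± 0.21 under isotype antibody (adjusted p = 0.218; 0.31 without UV2 isotype replicate 1) and -0.16 ± 0.21 under anti-PD-1 (adjusted p = 0.571). Sesn2 ranged from 5.76 to 20.8 TPM over all libraries with overlapping lines, and its averaged difference was -0.22 (95% interval -0.74 to 0.30). Gdf15, the least abundant member, measured 0.87, 1.24 and 1.46 TPM in parental isotype and 0.37, 4.3 and 2.41 TPM in UV2 isotype libraries. With anti-PD-1 it measured 2.47, 1.58 and 2.87 TPM in parental and 3.48, 5.07 and 5.08 TPM in UV2 tumors, and its averaged difference of 0.59 ± 0.29 did not pass (adjusted p = 0.124). Without UV2 isotype replicate 1, the library at 0.37 TPM, that difference was 0.86 and was called (adjusted p = 0.012).

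**Figure D3:**
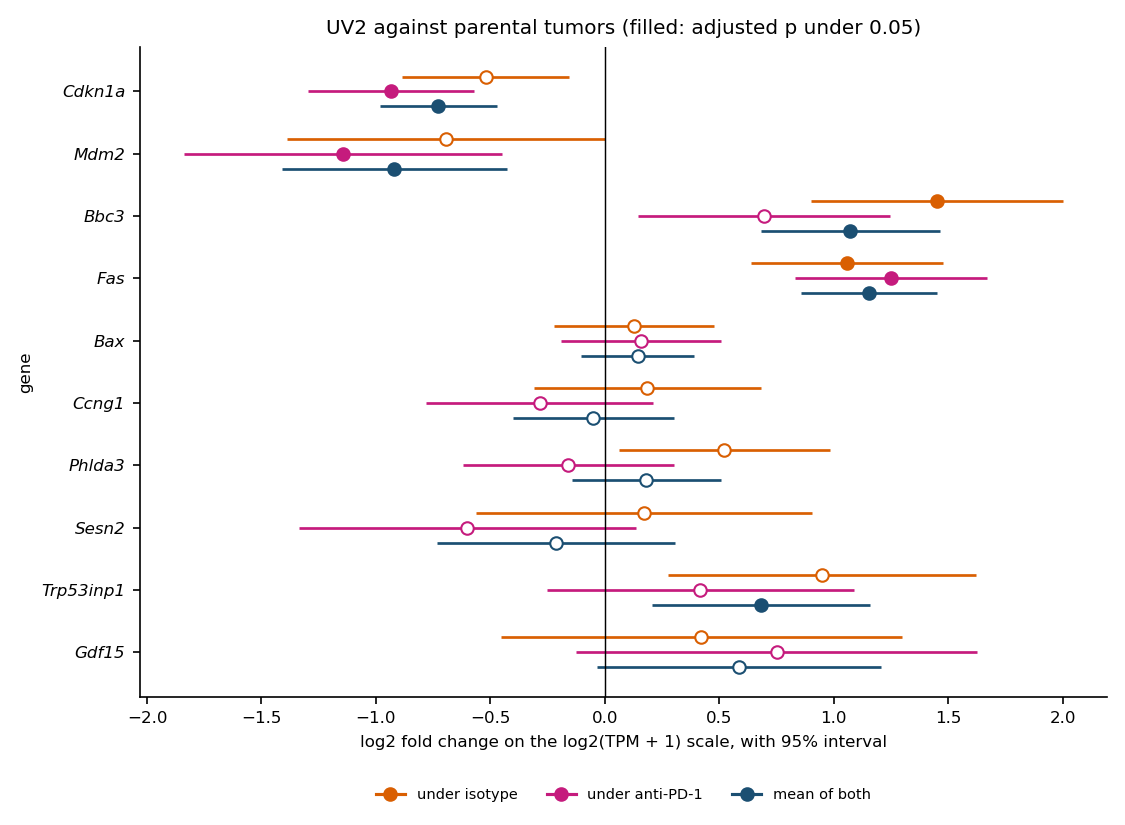
Line difference of each member (UV2 minus parental, log2(TPM + 1) scale, points) with 95% intervals (lines) under isotype antibody, under anti-PD-1 and averaged over both, filled where the adjusted p was under 0.05. Fas is filled in all 3 comparisons, whereas Cdkn1a and Mdm2 are filled under anti-PD-1 and in the mean and Bbc3 under isotype antibody and in the mean.

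By comparison, 2 of the 10 members were called under isotype antibody, Bbc3 and Fas (1.29% of all genes were called, 0.905% higher and 0.39% lower). Groups of 3 did not overlap there for Bbc3, Fas and Trp53inp1, higher in UV2 as for 10.4% of genes, and for Cdkn1a, lower as for 9.15% of genes. Under anti-PD-1, 3 members were called, Fas higher and Cdkn1a and Mdm2 lower (26.4% of all genes, 9.31% higher and 17.1% lower). Groups did not overlap under anti-PD-1 for Bbc3, Fas, Trp53inp1 and Gdf15, higher in UV2 as for 16.9% of genes, and for Cdkn1a and Mdm2, lower as for 34.3% of genes. The members' median difference was 0.30 under isotype antibody, 0.00 under anti-PD-1 and 0.16 averaged, beside medians of -0.04, -0.21 and -0.12 over all genes. Under isotype antibody Bbc3 and Fas were each called with 2 of 6 libraries left out in turn. Both calls were lost without parental isotype replicate 1 or 2 or UV2 isotype replicate 2 or 3, where the adjusted p reached 0.142 for both. Of all genes, 176 were called with all libraries, and 3 without parental isotype replicate 1, parental isotype replicate 2 or UV2 isotype replicate 2. Without UV2 isotype replicate 3, 61 were called, without UV2 isotype replicate 1, 408, and without parental isotype replicate 3, 457. The anti-PD-1 calls of Cdkn1a, Mdm2 and Fas were lost without parental anti-PD-1 replicate 3 or UV2 anti-PD-1 replicate 3, and that of Mdm2 also without parental anti-PD-1 replicate 1. Omitting either replicate 3 also cut the calls among all genes from 3586 to 9, so this loss was not particular to the members. When the first parental library of that treatment was omitted, 1216 genes were called. UV2 anti-PD-1 replicate 3 stood apart in keratinocyte markers, with a mean log2 level of 5.09 against at most 0.46 in the other UV2 libraries. The part of that library in the member calls was not tested beyond leaving it out. In the mean comparison Cdkn1a, Mdm2, Bbc3 and Fas were called with each of 12 libraries left out, and Trp53inp1 with 8 of 12, all but parental isotype replicate 1, parental anti-PD-1 replicate 3, UV2 isotype replicate 1 and UV2 anti-PD-1 replicate 3. Without the 3 libraries of lowest scaling factor, 1, 3 and 5 members were called under isotype antibody, anti-PD-1 and the mean. Of all genes, 39, 2691 and 3637 were called in the same fits.

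Scaling moved the balance of the whole table. Of the genes called under anti-PD-1, 35.3% were higher in UV2, and 52.1% with median-of-ratios scaling, which moved the median of all genes from -0.21 to 0.03. The same shares were 69.9% and 44.2% under isotype antibody (50.7% with quantile normalization) and 40.7% and 51.5% for the mean. With median-of-ratios scaling Cdkn1a fell by 0.66 and Mdm2 by 0.88 under anti-PD-1, and Bbc3 was then called there too (0.93, adjusted p = 0.0423). The direction of Cdkn1a, Mdm2, Bbc3 and Fas was the same under each scaling in all 3 line comparisons.

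Levels of p53 itself and its regulators were compared next, from a list of 13 genes of which 12 were tested. Trp53 measured 105, 105 and 96.2 TPM in parental isotype, 131, 73.9 and 116 TPM in UV2 isotype, 116, 114 and 110.4 TPM in parental anti-PD-1 and 98.8, 89.5 and 65.2 TPM in UV2 anti-PD-1 libraries. The lowest values again came from UV2 anti-PD-1 replicate 3 and UV2 isotype replicate 2, and no comparison called it (0.03 under isotype antibody, -0.44 under anti-PD-1 and -0.21 averaged). Under isotype antibody 0 of 12 regulators were called by limma, and under anti-PD-1 1 was called higher and 2 lower, near the shares of all genes (9.31% and 17.1%). Cdkn2a, whose ARF product blocks Mdm2, was at most 2.86 TPM anywhere and rose in UV2 under anti-PD-1 (0.98, adjusted p = 0.0474) and in the mean (0.97, adjusted p = 0.0103). Mdm4, an Mdm2 relative that masks p53, fell under anti-PD-1 by 1.70 (adjusted p = 0.0481), with 23.2, 10.3 and 19.7 TPM in parental and 9.55, 3.74 and 2.31 TPM in UV2 libraries. It was also low in parental isotype replicate 3 (4.73 TPM) and UV2 isotype replicate 2 (3.37 TPM), 2 of the 3 libraries of lowest scaling factor. Chek1, a DNA damage checkpoint kinase, fell under anti-PD-1 (-0.68, adjusted p = 0.0381) and in the mean (-0.44, adjusted p = 0.0413). Ppm1d, the phosphatase that resets the damage response, was not called, with group means from 8.85 to 12.0 TPM. Without the 3 libraries of lowest scaling factor, 11 regulators were tested, and 0 higher and 1 lower were called under anti-PD-1 and 1 higher and 2 lower in the mean. Of all genes, 848 higher and 1843 lower were then called under anti-PD-1 and 1496 higher and 2141 lower in the mean.

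A wider list of 40 other p53 targets, 38 of them tested, was read in the same way. Under isotype antibody 0 of 38 were called, with 23 higher and 15 lower. Under anti-PD-1 3 rose and 8 fell (9.31% and 17.1% of all genes), and in the mean 6 rose and 9 fell (13.4% and 19.6% of all genes), shares near those of the whole table. The list's medians were 0.16, -0.33 and -0.07 in the 3 comparisons. The genes that rose in the mean were Sesn1, a sestrin like Sesn2 (1.21 ± 0.23, adjusted p = 0.00369), the autophagy gene Dram1 (0.91), the inflammatory caspase Casp1 (0.72), the BH3-only gene Bcl2l11 (0.58), the phosphatase gene Ptp4a3 (0.79) and the peptide transporter gene Tap1 (0.92). Sesn1, Dram1 and Casp1 also rose under anti-PD-1 (1.31, 1.24 and 0.74). Casp1 and Tap1 are also interferon-induced genes.

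The genes that fell in the mean included 2 receptors of the TNF receptor family, the ectodysplasin receptor gene Eda2r (-1.23) and the TRAIL death receptor gene Tnfrsf10b (-0.64). Others were Lif, a cytokine (-1.82), the heparan sulfatase gene Sulf2 (-1.32), the receptor kinase gene Epha2 (-1.12), the translesion polymerase gene Polk (-0.94), Ckap2 (-0.67) and Gtse1 (-0.64), which act in mitosis, and the kinase gene Plk3 (-0.60). All of these but Plk3 also fell under anti-PD-1, by 0.81 (Tnfrsf10b) to 1.83 (Sulf2). Eda2r measured 13.9, 14.1 and 9.03 TPM in parental isotype and 10.2, 3.16 and 9.20 TPM in UV2 isotype libraries. Under anti-PD-1 it measured 19.6, 8.54 and 15.6 TPM in parental and 5.80, 4.78 and 1.37 TPM in UV2 libraries, the lowest again in UV2 replicate 3. Without the 3 libraries of lowest scaling factor the list had 0 higher and 5 lower called under anti-PD-1 and 6 higher and 5 lower in the mean. All genes then had 848 higher and 1843 lower called under anti-PD-1 and 1496 higher and 2141 lower in the mean. With median-of-ratios scaling the mean comparison had 24 of 38 higher and 14 lower, where the TPM values gave 16 and 22.

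A list of 12 cell division genes that the DREAM complex represses downstream of p21 had negative differences for all 12 in each line comparison. With median-of-ratios scaling 11 of 12 were negative in each, and without the 3 libraries of lowest scaling factor 8, 12 and 11 of 12 under isotype antibody, under anti-PD-1 and in the mean. None was called under isotype antibody (0 of 12 by limma, 1.29% of all genes). There 2 of 12 had an unadjusted p under 0.05, near the share of all genes (17.8%). Under anti-PD-1 7 fell (17.1% of all genes), and in the mean 7 fell (19.6% of all genes). Foxm1, a mitotic transcription factor, fell by 1.21 in the mean (adjusted p = 0.0108), Ccnb1, which encodes cyclin B1, by 1.04 (adjusted p = 0.0100), and Cdk1, the mitotic kinase, by 0.63 (adjusted p = 0.0201). The others called in the mean were Cdc25c (-0.62), Ccna2 (-0.70), Bub1 (-0.69) and Mki67 (-0.71), and under anti-PD-1 Ccnb1, Foxm1, Ccna2, Bub1, Mki67, Plk1 (-0.96) and Mybl2 (-0.67) fell. The list's median was -0.66 in the mean comparison, beside -0.12 for all genes. Without the 3 libraries of lowest scaling factor, 3 fell under anti-PD-1 and 2 in the mean, where 1843 and 2141 of all genes were called lower. With median-of-ratios scaling 5 and 4 fell, where 1793 and 2304 of all genes were called lower. Because Sesn2, Trp53inp1 and Gdf15 also answer to amino acid stress, a list of 9 ATF4 stress genes was read beside them. It had 8 of 9 lower in the mean, of which Asns (-0.76) and Psat1 (-1.09) fell, near the share of all genes called lower (19.6%).

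Treatment moved no member past the test in either line. Anti-PD-1 in parental tumors called 0 of 10 members by limma (0% of all genes), and 0 members and 83 of 13592 genes (0.611%) had an unadjusted p under 0.05. Gdf15 was the member whose libraries did not overlap, higher with anti-PD-1 (0.58 ± 0.40, 2.7% of genes in that direction). Cdkn1a measured 0.30 ± 0.17 with a 95% interval from -0.07 to 0.66.

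In UV2 tumors anti-PD-1 called 0 of 10 members by limma (0.0147% of all genes), with 2 members at an unadjusted p under 0.05 (9.16% of genes). Phlda3 measured -0.70 ± 0.21 (adjusted p = 0.542), but UV2 anti-PD-1 replicate 3 at 130.4 TPM lay above isotype replicate 3 at 122 TPM. Gdf15 measured 0.91 ± 0.40 (adjusted p = 0.542), with isotype replicate 2 at 4.3 TPM above treated replicate 1 at 3.48 TPM. The difference of the anti-PD-1 effect between lines called 0 of 10 members by limma (0% of all genes), with Phlda3 alone under an unadjusted p of 0.05 (2.97% of genes; -0.68 ± 0.30, adjusted p = 0.800).

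With triple therapy no member was called. All 3 Fas values lay above those of parental isotype, as for 12.7% of genes, and above those of parental anti-PD-1, as for 7.3% of genes. The share of genes above both groups was not counted. Against isotype antibody 0 of 10 members were called by limma (0.0221% of all genes), and 4 had an unadjusted p under 0.05 (12.6% of genes). Those 4 were Fas (0.66 ± 0.19, adjusted p = 0.320), Sesn2 (0.80 ± 0.34, adjusted p = 0.364), Trp53inp1 (0.76 ± 0.31, adjusted p = 0.355) and Gdf15 (0.93 ± 0.40, adjusted p = 0.375). With Cdkn1a they made 5 of 10 members whose treated libraries all lay above the isotype libraries, as 12.7% of genes did. Sesn2 measured 20.8, 14.2 and 15.3 TPM with triple therapy against 9.07, 13.9 and 5.76 TPM, and Gdf15 4.45, 3.33 and 2.03 TPM against at most 1.46 TPM. Against anti-PD-1, 0 of 10 were called by limma (0% of all genes), and Fas alone had an unadjusted p under 0.05 (0.89 ± 0.19, adjusted p = 0.330, 10.4% of genes). Markers of several other cell types lay higher with this treatment, with 0 called. The mean log2 level of 5 keratinocyte markers was 3.12 to 10.0 in triple therapy libraries and at most 0.62 in the other parental libraries. That of 4 neutrophil markers was 4.38 to 8.10, against 2.27 to 4.18 under isotype antibody and 2.57 to 3.95 in parental anti-PD-1 libraries. That of 5 fibroblast markers was 9.12 to 10.7, against 8.35 to 8.74 and 8.13 to 9.24. That of 4 endothelial markers was 3.60 to 5.69, against 3.40 to 3.54 and 2.90 to 4.58. Fibroblast and endothelial levels thus overlapped those of parental anti-PD-1. The part of these cell types in the member values was not tested.

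**Figure D4:**
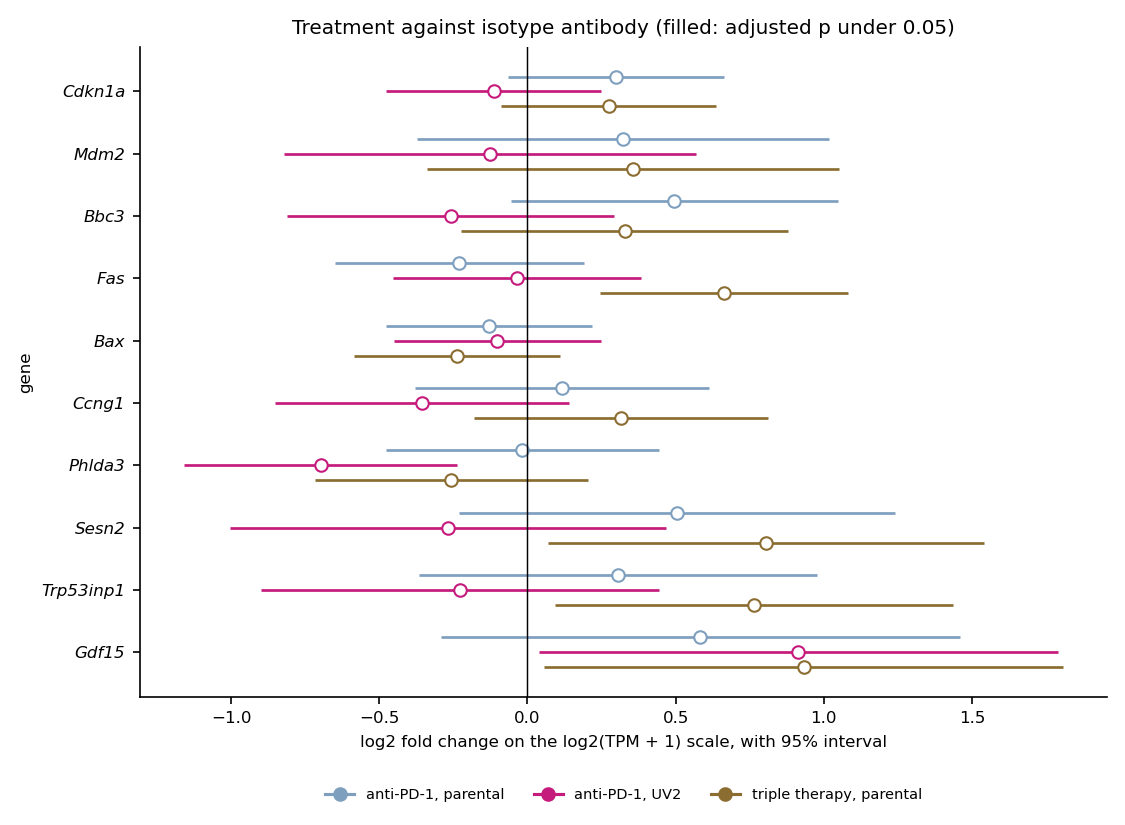
Difference of each member from isotype antibody (log2(TPM + 1) scale, points) with 95% intervals (lines) for anti-PD-1 in parental and UV2 tumors and triple therapy in parental tumors. No point is filled, since 0 members had an adjusted p under 0.05, and the intervals of Fas, Sesn2, Trp53inp1 and Gdf15 for triple therapy lie above 0.

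Leukocyte transcripts moved with the line. In bulk tumor, fewer cells of a type and less RNA per cell cannot be told apart, and each of the 10 genes can be transcribed by tumor and host cells alike. The mean log2 level of 4 leukocyte markers (Ptprc, Cd53, Laptm5 and Coro1a) was 6.35 to 7.15 in parental isotype and 6.36 to 7.18 in parental anti-PD-1 libraries. It was 6.90 to 7.59 with triple therapy, 7.15 to 8.24 in UV2 isotype and 7.95 to 8.48 in UV2 anti-PD-1 libraries. All 4 markers were higher in UV2 in each line comparison, 0 called under isotype antibody and 4 under anti-PD-1 and in the mean. Of all genes, 0.905%, 9.31% and 13.4% were called higher in these 3 comparisons. An interferon response list of 8 genes had all 8 higher, with 2, 4 and 7 called. Its level was 6.33 to 6.35 in parental isotype and 7.51 to 8.37 in UV2 isotype libraries, whereas under anti-PD-1 the lines overlapped (5.91 to 7.15 in parental and 7.01 to 8.44 in UV2), and triple therapy libraries reached 7.20.

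Under anti-PD-1 the leukocyte level did not overlap between the lines (6.36 to 7.18 in parental and 7.95 to 8.48 in UV2 libraries). Under isotype antibody it did not overlap either, but narrowly (at most 7.147 in parental and at least 7.154 in UV2 libraries). Line and leukocyte level are therefore hard to separate, and a call lost with the covariate does not show which one a gene followed. With the leukocyte level as a covariate, 0 of 10 members were called in any line comparison, and of all genes 1, 0 and 1 were. The fitted line differences in the mean comparison then were 0.93 for Fas, 0.86 for Bbc3, -0.67 for Cdkn1a and -0.65 for Mdm2 (adjusted p = 0.827 for each), in the same directions. Skeletal muscle markers varied from library to library in both isotype groups. Their mean log2 level was high in 1 of 3 parental isotype and 1 of 3 UV2 isotype libraries (6.38 and 5.78). It was at most 1.38 in the other isotype libraries. Parental anti-PD-1 libraries held 4.38 to 5.75, triple therapy libraries 3.88 to 6.26 and UV2 anti-PD-1 libraries 0.60 to 6.56. The part of muscle transcripts in the member values was not tested.

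**Figure D5:**
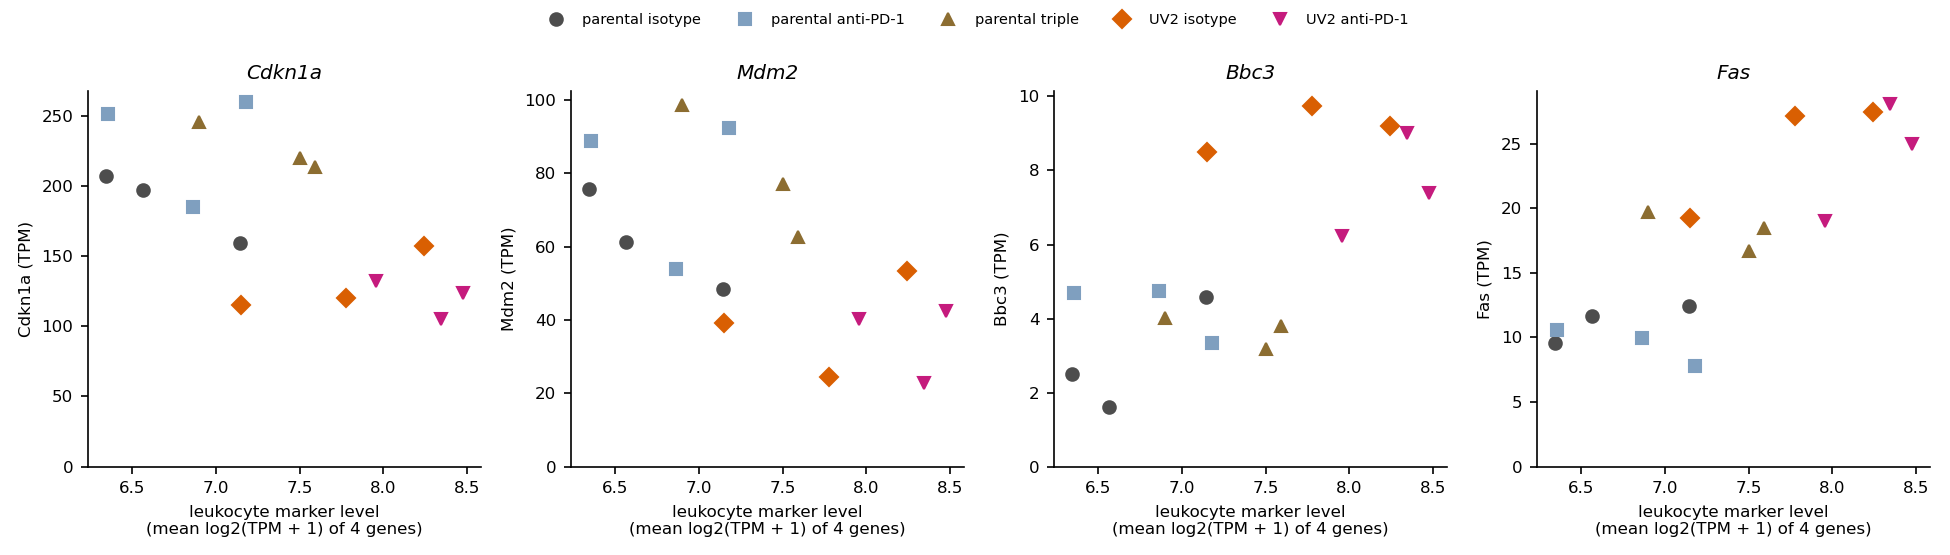
TPM of Cdkn1a, Mdm2, Bbc3 and Fas (vertical axes from 0) against the leukocyte marker level of each of 15 libraries (mean log2(TPM + 1) of 4 genes). Of the 6 UV2 libraries, 5 lie to the right of all parental libraries (above 7.59), and UV2 isotype replicate 1, at 7.15, lies among them.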

How the data were processed

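The 15 libraries were grouped by their labels into 5 groups of 3. The authors deposited gene TPM values made with RSEM and Bowtie2 on mouse builds mm10 and GRCm38, per the submitters' processing notes, which name no versions; the annotation is not given in the sources used here. Each column sums to 1000000, and read depth and its counting error are unknown. TPM is relative, so a large change in a few transcripts shifts all others.

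The log2(TPM + 1) values were used of genes that reached 1 TPM in 3 or more libraries. The limma package (3.58.1, R 4.3.3) fitted a mean for each group (eBayes with trend and robust, 10 residual degrees of freedom), and 8 two-sided comparisons were adjusted separately by Benjamini-Hochberg over all genes. The scripts were tested on simulated data. Positions are from GENCODE M21 (GRCm38).

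The members and gene lists were chosen with earlier results of these data known. All 10 members were named, with genes of the wider p53 lists called in any line comparison and always Trp53, Mdm4, Ppm1d and Cdkn2a. Alternatives were another pseudocount (0.1), no filter, a TPM minimum of 5, median-of-ratios scaling, quantile normalization, a replicate block, library weights, a leukocyte covariate, a fit on the compared groups alone and leaving out each library. Leaving out the 3 libraries of lowest scaling factor was chosen after seeing the data. The list gene Pidd1 was not found in the table by its symbol.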

Additional observations from a re-analysis of the deposited data

How the results depend on the processing

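In the mean line comparison Cdkn1a, Mdm2, Bbc3 and Fas kept their direction in all 22 alternatives and their call in 21, all but the leukocyte covariate, and Trp53inp1 kept its call in 17. The members called between lines under isotype antibody, 2 of 10, became 1 with median-of-ratios scaling or without the 3 libraries of lowest scaling factor, 0 with quantile normalization, the leukocyte covariate or only the compared groups, 7 with library weights, and 0 to 2 with each library left out. Under anti-PD-1 the 3 called became 8 with weights, 0 with the leukocyte covariate and 0 to 3 with each library left out. In the mean comparison the 5 called became 0 with the leukocyte covariate, 7 with weights (Bax and Phlda3 added) and 4 to 5 with each library left out, where Gdf15 was called without UV2 isotype replicate 1. Library weights, whose estimation stopped before convergence with 1 library weighted 73.8, called 2 and 3 members for anti-PD-1 in parental and UV2 tumors, 10 and 4 for triple therapy set against isotype or anti-PD-1, and 3 for the difference between lines, where the fit without weights called 0. Of all 13592 genes, weights called 412 and 2911 for anti-PD-1 in parental and UV2 tumors. They called 7576 and 4527 for triple therapy set against isotype or anti-PD-1, and 1303 for the difference between lines. The cause of these higher counts was not tested.

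Whether replicate numbers pair the libraries was not settled. Over 30 same-numbered pairs the correlation of deviations ran from -0.54 to 0.47, with 10 over 0.1. Differently numbered pairs were not set beside them. With the number as a replicate block, 1 member was called under isotype antibody (Bbc3; Fas had an adjusted p of 0.0543), 37 genes in all against 176.

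Reversals of direction were confined, among the results run, to differences that were not called. With single libraries left out, the line difference under isotype antibody ran from -0.0024 to 0.4538 for Ccng1, from -0.1152 to 0.4608 for Sesn2 and from -0.0098 to 0.9662 for Gdf15, and that of Ccng1 in the mean from -0.1438 to 0.0843. Ccng1 in the mean was also 0.1172 with median-of-ratios scaling, 0.0506 after quantile normalization, 0.1024 with weights, 0.1268 with the leukocyte covariate and 0.1114 without the 3 libraries. Phlda3 under anti-PD-1 was 0.1119 with median-of-ratios scaling and 0.4690 given the leukocyte covariate. The anti-PD-1 effect in parental tumors ran from -0.0109 to 0.2444 for Ccng1 and from -0.0795 to 0.0485 for Phlda3 with single libraries left out, and Phlda3 was 0.0939 with weights and 0.0327 with the leukocyte covariate. In UV2 tumors the anti-PD-1 effect ran from -0.1978 to 0.0238 for Cdkn1a, from -0.4203 to 0.1508 for Mdm2, from -0.1953 to 0.1172 for Fas and from -0.4966 to 0.0217 for Trp53inp1. There median-of-ratios scaling gave Cdkn1a 0.0163, Mdm2 0.0018, Fas 0.0904 and Bax 0.0291, quantile normalization gave Fas 0.0704, and weights gave Cdkn1a 0.0290. For triple therapy against isotype, Bbc3 was -0.1589 after quantile normalization and Phlda3 0.0213 with the leukocyte covariate. Gdf15 was not tested with a TPM minimum of 5. Of all genes, 176 were called under isotype antibody, against 82 with no filter, 70 with only the compared groups, 39 without the 3 libraries, 1 with the leukocyte covariate and 3704 with weights. The 3586 called under anti-PD-1 became 0 and 9262 with the covariate and with weights, and the 4484 in the mean 1 and 8973. All genes called ranged from 3 to 457 under isotype antibody, from 9 to 4077 under anti-PD-1 and from 2660 to 5816 in the mean as single libraries were left out, and limits of depth could not be read from TPM.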
